A study of Mus musculus with 2 samples.

Results

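The miRNA genes that lie opposite or close to Rtl1 in the imprinted Dlk1-Dio3 region of mouse chromosome 12 were examined in small RNA libraries of the embryonic heart. The 9 genes were named by their place in the region: Mir337, Mir540, Mir665, Mir431, Mir433, Mir127, Mir434, Mir136 and Mir370. Earlier results of these data were known when they were chosen. Rows were matched by Ensembl identifier to GENCODE M21, and 8 of the 9 had a row among the 1973 listed miRNA genes. Mir136 had no row under its own identifier. The libraries were microRNA-seq libraries of total RNA with a labelled size range under 30. The hearts were of healthy embryos of strain B6NCrl at 16.5 days, with males and females pooled. There was 1 group of 2 biological replicates, each a pool of hearts, and 41 embryos went into replicate 2, while the number in replicate 1 is not given. Both pools name the same donor entry, so the tests measure only the spread between these samples, which may be technical. The labels give no contrast of conditions, so the levels of the members, their strand and their difference between the pools were described. In such bulk samples, fewer cells of a type and less RNA per cell cannot be told apart.

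In the Dlk1-Dio3 domain the parental chromosomes are read differently. The maternal copy gives long noncoding transcripts, among them Meg3, Rian and Mirg, and the miRNAs that lie along the same strand. The paternal copy gives the protein genes Dlk1, Rtl1 and Dio3. Rtl1 is a gene derived from a retrotransposon that is needed for the blood vessels of the mouse placenta. The miRNAs made opposite Rtl1 match its mRNA without mismatch, and in mice they are known to direct its cleavage.

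By M21 coordinates on mm10, the members fell into 3 settings on the plus strand, so that Rtl1-antisense holds by position for only some of them. Mir431, Mir433, Mir127 and Mir434 lay opposite the coding sequence of Rtl1 (chr12:109590172-109595403, minus strand), as did the unlisted Mir136. Mir337, Mir540 and Mir665 lay beyond the 3′ end of the annotated Rtl1 gene, by 3308, 3047 and 2786 bases. Mir370 (chr12:109618258-109618336) lay 17928 bases beyond the 5′ end of Rtl1, within an intron of Rian. No annotated host gene of the same strand spanned the other 7 listed members.

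The mature miRNAs of the 4 listed members opposite the coding sequence are shown because every one of them has its full complement in Rtl1. Sequences are from RefSeq on GRCm38.p6, written 5′ to 3′, and capitals mark the seed, bases 2 to 8. The files give counts per gene, so the level of each arm is not known.
miR-431-5p: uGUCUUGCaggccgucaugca
miR-431-3p: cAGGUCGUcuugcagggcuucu
miR-433-5p: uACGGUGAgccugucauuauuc
miR-433-3p: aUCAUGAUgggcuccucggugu
miR-127-5p: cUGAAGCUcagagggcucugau
miR-127-3p: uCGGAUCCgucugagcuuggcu
miR-434-5p: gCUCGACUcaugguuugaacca
miR-434-3p: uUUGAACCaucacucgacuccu
The site of miR-127-3p in the Rtl1 transcript, bases 2642 to 2663 of 6358 and within the coding sequence, reads agccaagcucagacggauccga. Of 1738 mature mouse miRNAs in the RefSeq table, 11 had a full complement in this transcript (0.633%). They came from 6 genes, the 4 above, Mir136 and Mir432, all of which lie opposite the coding sequence. None of the 8 mature miRNAs of Mir337, Mir540, Mir665 and Mir370 had a full complement there. A miRNA opposite an exon has its full complement in the transcript by position alone, so the 11 matches follow from the coordinates.

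The libraries held 6473482 sense counts at miRNA genes in replicate 1 and 5841568 in replicate 2, out of 15207730 and 12885555 reads. A gene with 10 or more sense counts in each library was called detected, which 365 of the 1973 listed genes were (18.5%). A count of 0 allows up to 3 counts, or 0.463 CPM in replicate 1 and 0.514 CPM in replicate 2, where CPM is sense counts per 1000000 sense counts at miRNA genes. The heart muscle markers Mir208a, Mir208b and Mir499 were all detected and summed to 6.77% and 6.71% of sense counts. The endothelial Mir126a held 8.59% and 8.42%, and the smooth muscle genes Mir143 and Mir145a 9.73% and 9.81%. Marker sets of other tissues were lower in summed sense counts. By single genes this did not hold throughout, as Mir451a averaged 1511 CPM and Mir145a 1288 CPM. The red cell genes Mir451a and Mir144 held 0.204% and 0.172%, the leukocyte gene Mir223 had 399 and 405 CPM (Mir142b had 0 and 1 sense counts but 11332 and 19615 on the opposite strand), and the liver gene Mir122 had 160 and 161 CPM. Of the 7 neural genes named (of the miR-124 and miR-9 families), 5 had a row and 0 were detected, with 18 counts in all in replicate 1 and 1 in replicate 2. That sum lacks any read common to several copies of a neural miRNA, because reads with several matches were not assigned to genes. The part of other cell types in the member levels was not tested.

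All 8 listed members were detected. Together they held 53835 sense counts in replicate 1 and 46930 in replicate 2, which is 0.832% and 0.803% of the totals (Wilson 95% intervals 0.825% to 0.839% and 0.796% to 0.811%). Their levels ran from 145 CPM for Mir665 to 3763 CPM for Mir127, a 26.0-fold span. The median was 561 CPM, beside 102 CPM for the 357 other detected genes. Reads with several matches were not assigned, which can lower genes that share sequence with others. Hairpins of 0 listed members shared a 20-base run with another hairpin, beside 19.2% of the 308 other detected genes with a RefSeq hairpin. The effect on these medians and on the ranks below was not tested. Counts were not divided by length (the hairpins of the listed members have 67 to 124 bases), and whether different miRNAs are captured equally well was not tested, so an order of levels is an order of read counts.

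The 3 highest members, Mir127, Mir431 and Mir434, all lie opposite the Rtl1 coding sequence. Mir127 (chr12:109592846-109592915), whose product is known to act on the mRNA of BCL6 in human cells, had 3746 CPM in replicate 1 and 3779 CPM in replicate 2. Its mean was 3763 ± 23.7 CPM (SD, n = 2), rank 32 of the 365 detected genes. Mir431 (chr12:109590447-109590537), known in mouse muscle stem cells as a regulator of Pax7, had 2112 and 1843 CPM in the 2 libraries. Its mean was 1977 ± 190.1 CPM and its rank 57. These were the only members above 1000 CPM, a level that 82 of all listed genes reached.

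Mir434 (chr12:109594506-109594599) had 778 CPM in replicate 1 and 842 CPM in replicate 2, with a mean of 809.9 ± 44.8 CPM and rank 86. Mir433 (chr12:109591715-109591838), known to act on the mRNA of FGF20 in human cells, had 527 and 414 CPM, with a mean of 470.5 ± 80.2 CPM and rank 108. It was the lowest of the 4 genes opposite the coding sequence. Those 4 genes held 86.1% of the member counts in replicate 1 and 85.6% in replicate 2, and Mir127 alone held 45.0% and 47.0%. Another gene of that stretch, Mir432 (chr12:109594956-109595030), lies between Mir434 and Mir136 and had 0 counts in both libraries. Between Mir665 and Mir431, Mir3070a had 2 counts in replicate 1 and 8 in replicate 2, and Mir3070b had 0 in both. These 3 genes, which were named after their counts were seen, were thus not detected. Not every miRNA gene within the span of the members therefore had as many assigned counts as they did. Reads with several matches were not assigned, and whether this lowered the counts of these 3 genes was not tested.

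The 3 members beyond the 3′ end of Rtl1 lie close together but differed in level. Mir337 (chr12:109585789-109585885) had 628 CPM in replicate 1 and 677 CPM in replicate 2, with a mean of 652 ± 34.0 CPM and rank 94. Mir540 (chr12:109586080-109586146) starts 195 bases after it and had 196 and 185 CPM, with a mean of 191 ± 7.87 CPM. Mir665 (chr12:109586314-109586407) starts 168 bases further on and had 142 and 148 CPM, with a mean of 145 ± 4.30 CPM. Mir337 was higher than both neighbours in each library. Mir370, whose product is known to act on the mRNA of the fatty acid transport enzyme CPT1A in human cells, had 187 and 147 CPM. Its mean was 167 ± 28.3 CPM and its rank 156.

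**Figure D1:**
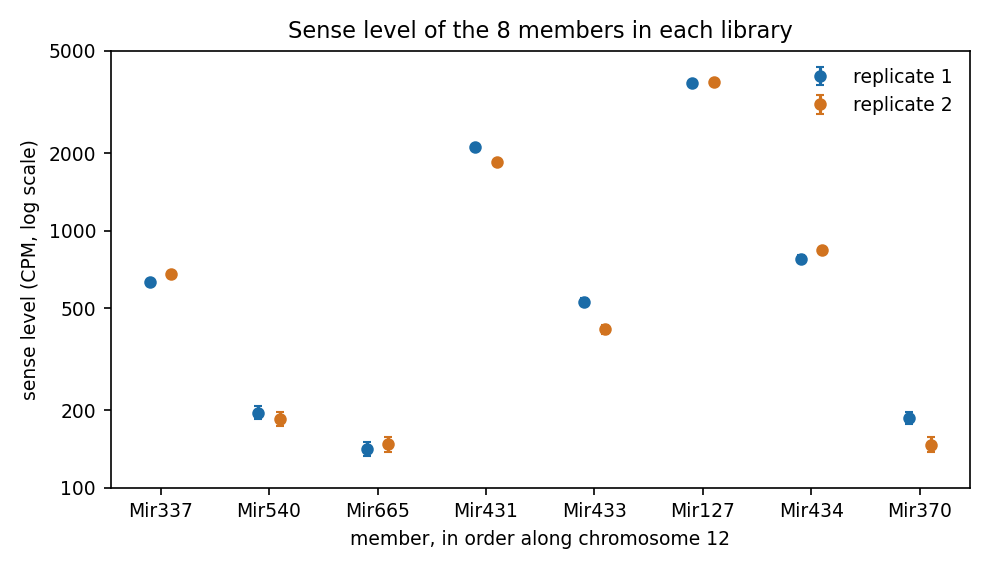
Sense level of each listed member in CPM on a log axis, in order along chromosome 12. Points are the 2 libraries and bars are Wilson 95% intervals for counting error. Mir127 and Mir431 stand above 1000 CPM, while Mir540, Mir665 and Mir370 stand between 142 and 196 CPM.

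Neighbours in the order of levels were taken to differ where the order was the same in both libraries and the difference of the mean log2 CPM exceeded the sum of their SDs. By that rule 5 of the 7 neighbouring pairs differed. Mir127 exceeded Mir431 by 1.77-fold in replicate 1 and 2.05-fold in replicate 2, and Mir431 exceeded Mir434 by 2.71-fold and 2.19-fold. Mir434 stood 1.24-fold above Mir337 in both libraries. Mir337 over Mir433 gave 1.19-fold and 1.64-fold, and Mir433 over Mir540 gave 2.69-fold and 2.24-fold. Mir370 could not be ordered beyond the spread against Mir540 or Mir665, while Mir540 was above Mir665 in both libraries. Mir540 over Mir370 was 1.05-fold in replicate 1, with an exact interval from 0.969 to 1.14, and 1.26-fold in replicate 2. Mir370 over Mir665 was 1.32-fold in replicate 1 and 0.994-fold in replicate 2.

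Along the region, the members stood above the miRNA genes on the Meg3 side. Mir493, Mir673 and Mir770 there had means of 59.1 ± 9.72, 46.2 ± 4.34 and 37.6 ± 6.23 CPM, below the lowest member. In the Rian introns near Mir370, Mir341 had 291 ± 2.18 CPM and Mir1188 4.13 ± 0.27 CPM. The members made up 26.4% of the sense counts at the 58 listed miRNA rows from Meg3 to the end of Mirg in replicate 1 and 26.6% in replicate 2. The Mirg list, the large cluster distal to Rian, had 29 of its 34 rows detected, with a median of 114 CPM. The ratio of the median of the 8 members to that of the 29 Mirg genes was 4.92. It was 4.68 with the 24 Mirg genes whose hairpins shared no 20-base run with another hairpin. At high levels the lists were alike, with 7 of the 29 Mirg genes and 2 of the 8 members above 1000 CPM. The 2 highest Mirg genes stood above every member, with Mir411 averaging 5610 ± 252 CPM and Mir487b 4710 ± 261 CPM (SD, n = 2 each). These are descriptions of levels, and the lists were not tested against each other. A further 5 genes of the Mirg list had no row of their own. Sense counts leave out 33107 opposite-strand counts in replicate 1 and 24652 in replicate 2 at 4 other rows of the region, Mir299b of the Mirg list among them. Beyond Mirg, Mir1247 on the Dio3 side had 3.85 ± 1.33 CPM. On the Dlk1 side, outside the imprinted domain, Mir342 had 2063 ± 181 CPM.

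**Figure D2:**
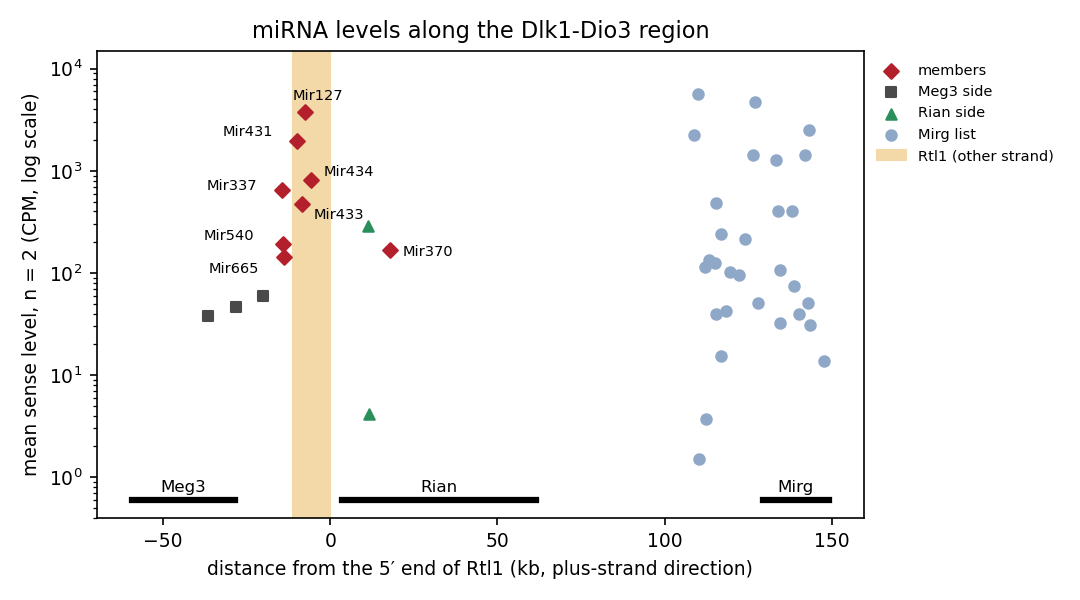
Mean sense level of miRNA genes (CPM, log axis) against distance in kb from the 5′ end of Rtl1, with the Rtl1 gene shaded and the spans of Meg3, Rian and Mirg as black bars. The 4 Mirg list rows and 0 member rows below 1 CPM are not drawn, and the members over Rtl1 include Mir127 at 3763 CPM, while the Meg3 side genes lie between 37.6 and 59.1 CPM.

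The genes closest to Mir127 in level over the 2 libraries, by Euclidean distance in log2 CPM among detected genes that are not members, were Mirlet7b (distance 0.24, 3186 and 3942 CPM), Mir744 (0.25, 3859 and 3194 CPM) and Mir106b (0.34, 3110 and 3267 CPM). With only 2 libraries of 1 group, this likeness is one of level. None of these genes is on chromosome 12.

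The members differed little between the pools. Their log2 ratios of replicate 1 over replicate 2, after TMM scaling, ran from -0.14 to 0.32, and 0 of 8 passed the call of an adjusted p under 0.05 with at least a 2-fold difference. For each gene the reads were tested two-sided with an exact binomial test and adjusted by Benjamini-Hochberg over the 365 detected genes, which compares these libraries and not conditions. At an unadjusted p under 0.05 with no minimum fold, 6 members passed, beside 52.1% of detected genes. Over all detected genes 3.29% passed the 2-fold call with TMM scaling. With DESeq2 size factors 0 members passed it, beside 11 of the 365 detected genes.

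Without the minimum fold, 6 of the 8 members passed at an adjusted p under 0.05, beside 46.3% of all detected genes. Of those 6, 3 were higher in replicate 1 and 3 in replicate 2, beside 20.3% and 26.0% of detected genes. The test takes counting error only, while the biological coefficient of variation that edgeR estimated between the 2 libraries was 17.6%. It gains power with counts, and of the 123 other genes within the members' range of levels 65.0% passed. The median absolute log2 ratio was 0.14 for the members and 0.14 for those 123 genes. 

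Mir433 and Mir370 had the largest differences. Mir433 had 3413 counts in replicate 1 and 2417 in replicate 2, a log2 ratio of 0.32 (exact 95% interval 0.25 to 0.40, adjusted p = 1.36e-16, exact binomial test). Mir370 had 1210 and 858 counts, a log2 ratio of 0.32 (0.19 to 0.45, adjusted p = 1.92e-06, exact binomial test). Mir431, with 13670 and 10765 counts, was also higher in replicate 1, with a log2 ratio of 0.17 (0.13 to 0.21, adjusted p = 2.05e-19, exact binomial test). These 3 members lie in different settings, Mir370 in Rian and the others opposite Rtl1. The opposite-strand counts at the leukocyte row Mir142b also differed between the pools (11332 in replicate 1 and 19615 in replicate 2), and their part in the member ratios was not tested.

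Mir434 and Mir337 stood on the other side. Mir434 had 5038 counts in replicate 1 and 4916 in replicate 2, a log2 ratio of -0.14 (exact 95% interval -0.20 to -0.081, adjusted p = 6.71e-06, exact binomial test). Mir337 had 4068 and 3952 counts, a log2 ratio of -0.13 (-0.20 to -0.068, adjusted p = 0.000142, exact binomial test). Both were thus higher in replicate 2 relative to the library sizes. Mir127 had 24249 and 22078 counts and a log2 ratio of -0.038 (-0.065 to -0.012, adjusted p = 0.0107, exact binomial test), which did not pass with total-count scaling (adjusted p = 0.468) or DESeq2 size factors (adjusted p = 0.212). Mir540 (log2 ratio 0.059, adjusted p = 0.458) and Mir665 (-0.086, adjusted p = 0.322) did not pass by the same exact test.

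**Figure D3:**
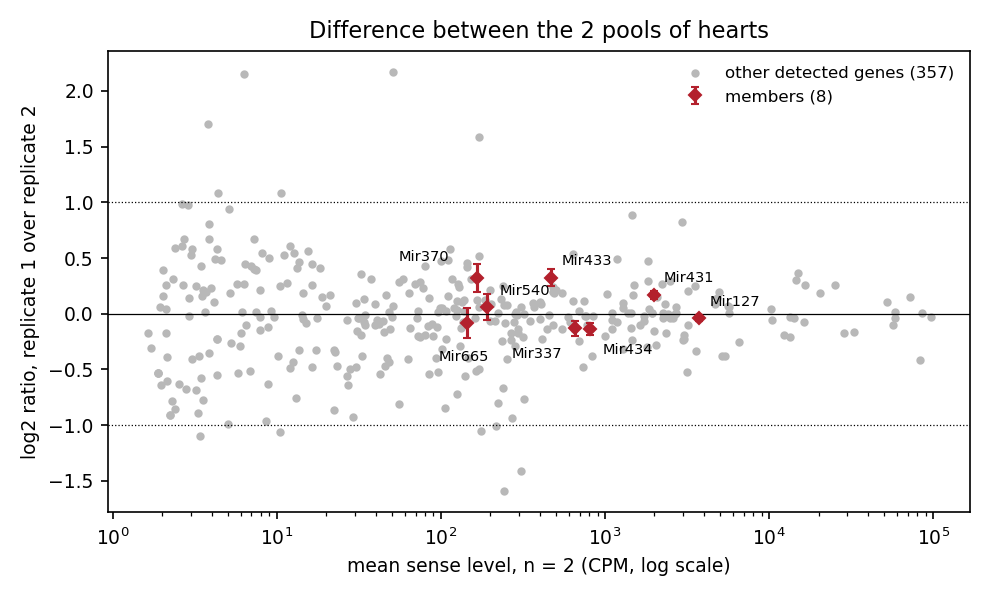
Log2 ratio of replicate 1 over replicate 2 against mean level (CPM, log axis) for the 8 members, with exact 95% intervals, and the 357 other detected genes. Dotted lines mark a 2-fold difference, and the members lie between -0.14 and 0.32.

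The ratios of some members to Mir127 differed between the libraries by more than counting error. Relative to Mir127 within the same library, which needs no scaling, Mir431 stood at 56.4% of its counts in replicate 1 and 48.8% in replicate 2. Mir433 stood at 14.1% (exact 95% interval 13.6% to 14.6%) and 10.9% (10.5% to 11.4%). Mir434 moved the other way, with 20.8% (20.2% to 21.4%) and 22.3% (21.6% to 23.0%). The intervals of the 2 libraries did not overlap for these 3 members and for Mir370, which stood at 4.99% and 3.89%. They overlapped for Mir337 (16.8% and 17.9%), Mir540 (5.24% and 4.90%) and Mir665 (3.78% and 3.91%). Ratios to Mir127 were not computed for other genes, so such differences are not shown to be particular to the members. In the exact test between the pools, 65.0% of the 123 other genes at member levels passed without a minimum fold. Since PCR can copy a molecule, the intervals cover counting error only, and with 1 library per pool the error of library making is not known.

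**Figure D4:**
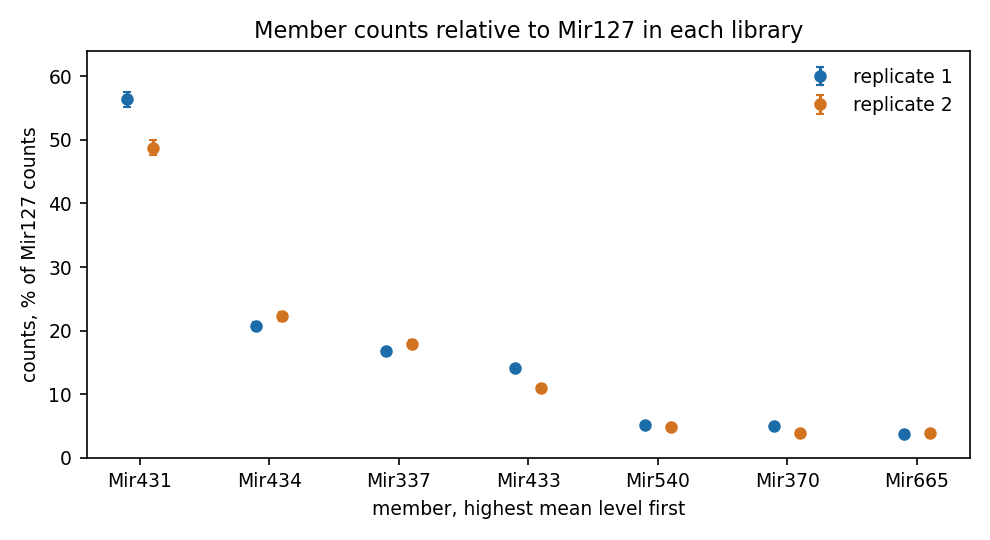
Counts of each other member as a percentage of the Mir127 counts of the same library, with exact 95% intervals for counting error. Mir431 and Mir433 are lower in replicate 2 (48.8% and 10.9%) than in replicate 1 (56.4% and 14.1%), and Mir434 is higher.

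Nearly all reads at the members were of the sense strand. Mir337 had 11 opposite-strand counts in replicate 1 and 2 in replicate 2, or 0.270% (Wilson 95% interval 0.151% to 0.482%) and 0.0506% (0.0139% to 0.184%) of its stranded counts. The other 7 listed members had 0 in both libraries, which for Mir127 allows an opposite-strand share of up to 0.0124% in replicate 1 and 0.0136% in replicate 2. Of all rows detected on the sense strand, 32 of 365 had any opposite-strand count (8.77%). The opposite-strand share of all their stranded counts was 0.00742% in replicate 1 and 0.00577% in replicate 2. It was 0.0204% and 0.00426% at the 8 listed members, so so low a share is not particular to them. All listed rows together held 391227 and 379629 opposite-strand counts, nearly all at rows not detected on the sense strand. At Mir337, M21 annotates Mir3544 on the other strand, which has no row of its own. Its mature miRNAs are shown beside those of Mir337 because they overlap them on the other strand, with seeds in capitals.
miR-337-5p: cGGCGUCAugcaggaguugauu
miR-3544-3p: aCUCCUGCaugacgccguuccc
miR-337-3p: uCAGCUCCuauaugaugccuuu
miR-3544-5p: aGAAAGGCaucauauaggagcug

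The row at the place of Mir136 could not be assigned. ENSMUSG00000070129 stands in the files as version 1, and version 2 of that identifier in M21 is Mir3071 (chr12:109595318-109595397, minus strand). Mir136 (chr12:109595327-109595388, plus strand) overlaps it and has an identifier of its own with no row. The counts were made with annotation M4, which was not used here, so the strand of version 1 is not known. The row held 1137 sense counts in replicate 1 and 968 in replicate 2 (171 ± 7.02 CPM) and 0 opposite-strand counts in both. All of its reads therefore came from 1 strand. The mature miRNAs on the 2 strands differ in seed, as the 5′ arms show.
miR-136-5p: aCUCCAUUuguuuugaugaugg
miR-3071-5p: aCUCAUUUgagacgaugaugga
Between the pools the log2 ratio of this row was 0.058 (exact 95% interval -0.066 to 0.18). Its mean lay between those of Mir540 and Mir370, but in replicate 1 it was below both (176 CPM, against 196 and 187 CPM).

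The members did not form a seed family. Their 18 mature miRNAs, Mir136 included, had 18 different seeds. A seed in common with another gene was found for 2 of them, beside 32.0% of all 1738 mature miRNAs. One was miR-370-5p, which shares AGGUCAC with miR-1193-3p of the Mirg list.
miR-370-5p: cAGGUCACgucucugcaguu
miR-1193-3p: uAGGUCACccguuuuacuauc
Mir1193 had 3363 counts in replicate 1 and 2603 in replicate 2, above Mir370 in both libraries. The other was miR-540-3p, which shares its seed with miR-6915-5p. None of the 8 listed hairpins shared a run of 20 bases with another mouse hairpin in the RefSeq table, beside 59 of the 308 other detected genes with a hairpin there (19.2%). The listed hairpins had a median GC content of 56.1%, beside 50.5% for those 308.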

How the data were processed

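Small RNA of 2 pools of E16.5 mouse hearts was sequenced, and the authors deposited raw read counts per miRNA gene, with 1 column for either strand and 1 for each strand. Per the deposited file lists, mm10 and annotation M4 were used. The aligner, counter and trimming are not given in the sources used here, nor is the strand of each column. Of the strand columns, the one with more gene counts was called sense. Each file opens with 4 lines without a gene, which entered no total: multiply matching reads (29.5% in replicate 1, 31.9% in replicate 2), unmapped reads (22.4%, 17.2%) and reads outside genes (2.99%, 2.66%) were among them.

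Names and coordinates came from GENCODE M21, which held 1894 of 1973 listed identifiers, 1815 of them in the same version. Mir337, Mir540 and Mir127 had an older version in the files. Sequences came from RefSeq (GRCm38.p6), matched by symbol, with a hairpin for every member. TMM factors came from edgeR 4.0.16 in R 4.3.3 over the detected genes. The single group left no contrast for a quasi-likelihood fit. Ratios used 0.5 added to each count. Shares carry Wilson intervals and ratios exact Clopper-Pearson intervals. The alternatives tried were DESeq2 1.42.0 size factors, scaling by totals, other minimums and added counts, either-strand reads, omitting the top gene from the total, and each library alone. Python 3.11.15 and scipy 1.17.1 were used.

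The text names the 9 members, genes overlapping a member on the other strand, the 3 genes nearest to the most abundant member, and the 2 highest genes of each list of the region. Outside that rule, chosen after their values were seen, it names the third Meg3 side gene, Mir432, Mir3070a, Mir3070b, Mir299b and Mir1193. The members and lists were chosen with earlier results of these data known.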

Additional observations from a re-analysis of the deposited data

Results flagged for a closer look

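The row ENSMUSG00000070129, which is not a member by identifier, held 1137 sense counts in replicate 1 and 968 in replicate 2, above the 3 counts that a count of 0 allows. At Mir337 the opposite-strand column, which is outside the sense measurement, held 11 counts in replicate 1, above the same limit, and 2 in replicate 2, below it.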

How the results depend on the processing

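The median member level of 561 CPM became 529 CPM with reads of either strand, 621 CPM with a total that leaves out the most abundant gene, and 470.5 CPM with ENSMUSG00000070129 as a ninth member, an alternative chosen after seeing the data. The share held by the members, 0.818%, became 0.769% with reads of either strand and 0.905% without the most abundant gene in the total. With reads of either strand the totals gained 391227 counts in replicate 1 and 379629 in replicate 2, while the members gained 11 and 2. Both lower values thus reflect the larger totals and not opposite-strand reads at the members. The count of members past the test, 0 with the 2-fold minimum, became 6 without a minimum fold and was 0 under the other alternatives run. Without the minimum it was 5 with total-count scaling, DESeq2 size factors or reads of either strand, which lost Mir127 only. Of all genes tested under those settings, in that order, 169 of 365, 167 of 365 and 180 of 377 passed. The log2 ratio of the median level of the members over that of the Mirg list, 2.30, became 2.51 over all listed rows. It was 2.23 over genes whose hairpins shared no 20-base run with another hairpin. Of the 123 recomputed values 44 were log2 ratios, and 0 of those changed sign. The alternatives shifted most of these ratios only slightly, so few could have changed sign, and the 0 says little about their stability. Leaving out a replicate leaves 1 library, which gives levels but no comparison of pools. No paired analysis was possible because the labels give a single group.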

Other observations

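Several hairpins of the group repeat a stretch of their own sequence. The longest run of bases found in 2 places without overlap within the hairpin was 13 bases in Mir434 and 10 bases in Mir431 and Mir540. Of the 8 listed members, 3 had such a run of at least 10 bases, beside 7 of the 308 other detected genes with a hairpin in RefSeq (2.27%), with a length limit chosen with the sequences in view. The 3 hairpins are shown 5′ to 3′ (GRCm38.p6, plus strand) with both copies of the run in capitals.
Mir434 (chr12:109594506-109594599): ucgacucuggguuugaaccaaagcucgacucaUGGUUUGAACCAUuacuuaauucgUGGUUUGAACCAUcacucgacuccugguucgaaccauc
Mir431 (chr12:109590447-109590537): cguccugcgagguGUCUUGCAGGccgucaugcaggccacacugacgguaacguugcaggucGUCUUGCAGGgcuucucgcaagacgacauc
Mir540 (chr12:109586080-109586146): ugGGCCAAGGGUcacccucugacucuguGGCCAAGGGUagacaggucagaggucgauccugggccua
In Mir431 and Mir434 the run overlaps both mature arms. Mir434 and Mir431 lie opposite the Rtl1 coding sequence and Mir540 does not. No relation of these repeats to the levels was tested.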
